A study of Mus musculus with 4 samples.

Results

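Mouse CD4 T cells sorted as IL-17+ were set against CD4 T cells sorted as IL-17-, over both kinds of precursor at once, to describe what IL-17+ cells from naive cells and from Foxp3+ cells have in common. Of 18193 genes measured, 11769 exceeded a signal floor, described below, on at least 1 array. Of these, 4563 were separated: the lowest array of one side lay above the highest array of the other, by any margin. They were 19.2% higher and 19.5% lower on both IL-17+ arrays, as shares of the 11769. If 4 untied values of a gene fell in arbitrary order, a share of 0.333 would be separated in this way. Both arrays of the higher side also had to exceed the floor, so genes with only 1 array above it could not be separated. The share to set beside these 11769 genes is therefore lower and was not computed. A gap of 2-fold or more between the sides was found for 318 of them, and these are the genes called higher or lower here. The gap is the smallest of the 4 ratios that can be formed across the sides, so each ratio of an array on one side to an array on the other is at least as large.

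The Th17 population came from naive CD4 T cells cultured under Th17 conditions and the exFoxp3Th17 population from Foxp3+ CD4 cells given the same Th17 conditions; both were then sorted as IL-17+ Foxp3-. The Th0 population came from naive CD4 T cells under Th0 conditions and was sorted as IL-17- Foxp3-, and the Treg population came from Foxp3+ cells kept with IL-2 and was sorted as IL-17- Foxp3+. Donor mice of all 4 populations were C57BL/6, aged 8 to 10 weeks, with cells taken from lymph nodes and spleen, and IL-17 was read from a GFP reporter. Each population was hybridised to 1 Affymetrix expression array, so no gene has a replicate or a standard deviation, and no test was made. The 2 arrays of a side are different populations and not replicates of a condition; an exact permutation of 2 arrays against 2 could not give a two-sided p below 0.333. Culture condition and sort gate changed together, and the IL-2 of the Treg culture goes with 1 array of the other side, so these cannot be told apart.

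Th17 cells are helper T cells that make IL-17 and recruit neutrophils to epithelial surfaces. TGF-beta with IL-6 starts their program through STAT3. The aryl hydrocarbon receptor, a transcription factor activated by small aromatic ligands, is abundant in them, and its own target genes include cytochromes P450 and feedback inhibitors. TGF-beta also starts Foxp3, and Foxp3+ regulatory T cells can lose Foxp3 and take up IL-17 production under inflammatory cytokines.

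The values are MAS5 signals, a linear intensity for each probe set, with a floor at 12.1, the median of all probe sets. Values below the floor were raised to it before a ratio was taken, and a gap against such a value is written as "at least". On each array, 48.7% to 51.2% of the probe sets exceeded it. The ratio of 3' to 5' control probes lay between 0.907 and 1.06 for Gapdh and between 1.12 and 1.31 for Actb. Foxp3, the regulatory T cell factor, had 6.2 in Th17 and 8.03 in exFoxp3Th17, against 4.25 in Th0 and 585 in Treg, so only the Treg array lay above the floor. Il17a did not exceed the floor on any array (9.81 and 9.41 in Th17 and exFoxp3Th17, against 7.09 and 8.18 in Th0 and Treg) and so does not separate the sides here. Xist, which is transcribed from the inactive X chromosome, had 7.73 in Th17 and 3766 in exFoxp3Th17, against 7.41 in Th0 and 10.8 in Treg, and the Y-linked Eif2s3y had 876 in Th17 and 4.66 in exFoxp3Th17, against 747 in Th0 and 654 in Treg. The Y-linked Kdm5d and Uty likewise lay below the floor on the exFoxp3Th17 array only. The exFoxp3Th17 array therefore stands apart from the other 3 in sex-linked genes. The labels give no sex. A difference in donor sex would go with every ratio that uses the exFoxp3Th17 array and cannot be told apart from its other differences. Of the called genes, 8 of those higher and 2 of those lower lie on the X chromosome, and 0 on the Y chromosome. The shares of X-linked and Y-linked genes among all genes above the floor were not counted, so these counts cannot be read as many or few.

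Of the 11769 genes above the floor on at least 1 array, 205 (1.74%) were higher on both Th17 arrays by 2-fold or more and 113 (0.96%) were lower. Without a minimum gap the 2 directions were nearly equal, at 2263 genes higher (19.2%) and 2300 lower (19.5%). Each side has 2 arrays, and any 1 array left out lets more genes pass because fewer arrays have to lie beyond the others. The count of genes higher was 756 without Th17, 419 without exFoxp3Th17, 348 without Th0 and 506 without Treg. The count of genes lower was 659, 229, 328 and 370 without those same arrays. Just inside the 2-fold gap lay Mtss1, with 375 in Th17 and 409 in exFoxp3Th17, against 109 in Th0 and 187 in Treg, and Fry, with 32.4 in Th17 and 36.4 in exFoxp3Th17, against 115 in Th0 and 73.1 in Treg. Just outside it lay Tdrkh, with 101 in Th17 and 94.9 in exFoxp3Th17, against 20.6 in Th0 and 47.6 in Treg, and Oas1a, with 3.76 in Th17 and 16.8 in exFoxp3Th17, against 33.6 in Th0 and 41.4 in Treg.

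The gap rule was stricter than the same fold in each precursor's own ratio. Th17 exceeded Th0 by 2-fold for 968 genes (8.22%) and exFoxp3Th17 exceeded Treg for 1328 (11.3%). These ratios share no array, and 291 genes (2.47%) were higher in both, which is 30.1% of the naive-derived list and 21.9% of the Foxp3-derived list. Of the 291, 205 had the 2-fold gap, 76 were separated by less and 10 had overlapping sides. In the other direction Th17 lay below Th0 for 810 genes (6.88%), exFoxp3Th17 below Treg for 1170 (9.94%), and both for 198 (1.68%), which is 24.4% and 16.9% of the 2 lists. Of these 198, 113 had the 2-fold gap, 81 were separated by less and 4 overlapped. Itgae, the integrin chain that holds T cells at epithelia, is an overlapping case: 46.7 in Th17 and 1298 in exFoxp3Th17, against 8.32 in Th0 and 384 in Treg. Both own ratios of Itgae exceed 2-fold, but the Treg array lies above the Th17 array.

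**Figure D1:**
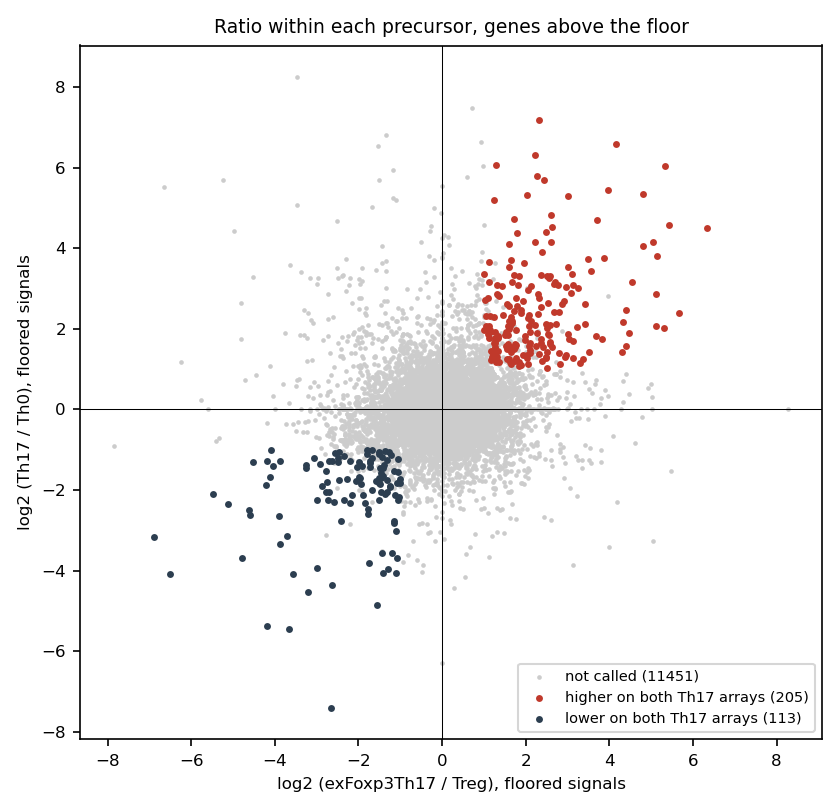
Each point is a gene above the floor on at least 1 array, placed by its log2 ratio of Th17 over Th0 (y axis) and of exFoxp3Th17 over Treg (x axis), both after the floor. The 205 genes called higher lie in the upper right and the 113 called lower in the lower left; genes that pass 2-fold in only one ratio or in opposite ratios are left out of both.

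Among the 205 genes higher on both Th17 arrays the median gap was 2.71-fold, and 56 had a gap of 4-fold or more, 16 of 8-fold or more and 2 of 16-fold or more. The gap is a lower bound for 33 of them. The median ratio was 4.24-fold for Th17 over Th0 and 4.18-fold for exFoxp3Th17 over Treg. The 2 Th17 arrays lay within 2-fold of each other for 148 of the 205 genes; exFoxp3Th17 exceeded Th17 by 2-fold or more for 40 and the reverse held for 17. On the other side, Treg and Th0 lay within 2-fold for 165, Treg exceeded Th0 by 2-fold for 37 and the reverse held for 3. Among the 113 genes lower, the median gap was 2.48-fold, with 17 at 4-fold or more, 7 at 8-fold or more, 2 at 16-fold or more and 16 lower bounds. The Th17 arrays lay within 2-fold of each other for 91 of these, and Treg and Th0 for 83. Other probe sets bear on part of these calls. Of 124 genes higher that had another probe set above the floor, 100 had one separated the same way, 61 by 2-fold, and 24 had none separated; 2, Arhgap39 and Pdlim5, had one separated the opposite way. Of 55 such genes lower, 45 had another separated the same way, 30 by 2-fold, and 0 the opposite way.

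The widest gap in the higher direction was that of Crispld2. Crispld2, a secreted cysteine-rich protein that binds lipopolysaccharide, had 804 in Th17 and 489 in exFoxp3Th17, against 0.925 in Th0 and 1.18 in Treg. Il21, the cytokine that Th17 and follicular helper cells secrete, had 491 in Th17 and 339 in exFoxp3Th17, against 1.5 in Th0 and 1.7 in Treg. Both genes were bright on both Th17 arrays and below the floor on both others, and their gaps were at least 40.4-fold and at least 28-fold. Lgr4, a receptor for R-spondins that raises Wnt signalling, had 639.8 in Th17 and 240.0 in exFoxp3Th17, against 14.6 in Th0 and 15.4 in Treg, a gap of 15.6-fold. Tox2, an HMG-box factor of follicular helper cells, had 383 in Th17 and 2150.0 in exFoxp3Th17, against 16.8 in Th0 and 26.6 in Treg, a gap of 14.4-fold. The Tox2 signal of exFoxp3Th17 stood well above that of Th17, but the sides did not overlap. Gpr15, a receptor that takes T cells to the colon, had 1161 in Th17 and 2163 in exFoxp3Th17, against 6.93 in Th0 and 121 in Treg, a gap of 9.63-fold. Its Treg array lay far above its Th0 array and still below both Th17 arrays.

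Ermn, a cytoskeletal protein first described in oligodendrocytes, had 318 and 299 in Th17 and exFoxp3Th17, against 1.13 and 22.7 in Th0 and Treg (13.2-fold). Mgll, the lipase that breaks down monoacylglycerols, had 275 and 177 in Th17 and exFoxp3Th17, against 20.2 and 7.86 in Th0 and Treg (8.8-fold). Gja1, the gap junction protein connexin 43, had 475 and 220.4 in Th17 and exFoxp3Th17, against 3.61 and 27.1 in Th0 and Treg (8.13-fold). For these 3 genes both Th17 arrays lay many times above both others. Kctd14, a protein with a potassium channel tetramerisation domain, had 161 and 201 in Th17 and exFoxp3Th17, against 14.9 and 17.1 in Th0 and Treg (9.4-fold). Clvs1, a lipid-binding protein of clathrin vesicles, had 98 and 115 in Th17 and exFoxp3Th17, against 6.86 and 5.36 in Th0 and Treg (at least 8.1-fold). The probe sets of Crispld2, Kctd14, Gja1, Tox2 and Mgll carry a suffix of the array design that marks probes shared with other transcripts, so related transcripts could add to their signals.

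In the lower direction the widest gap was that of Trat1. Trat1, an adaptor that keeps the T cell receptor complex at the surface, had 23.9 in Th17 and 48.2 in exFoxp3Th17, against 994 in Th0 and 876 in Treg, a gap of 18.2-fold. Itih5, a chain of the inter-alpha-trypsin inhibitors that bind hyaluronan, had 25.5 in Th17 and 13.7 in exFoxp3Th17, against 435 in Th0 and 1255 in Treg, a gap of 17-fold. Trat1 was of similar size on the Th0 and Treg arrays, whereas Itih5 was higher on the Treg array. Sytl2, a Rab27 effector of vesicle traffic, had 16.1 in Th17 and 17.6 in exFoxp3Th17, against 375 in Th0 and 164 in Treg (9.27-fold). Nacc2, a BTB-domain transcriptional repressor, had 21.6 in Th17 and 4.09 in exFoxp3Th17, against 191 in Th0 and 159 in Treg (7.33-fold). Xdh, xanthine dehydrogenase of purine breakdown, had 14 in Th17 and 7.95 in exFoxp3Th17, against 88.2 in Th0 and 179.6 in Treg (6.3-fold). For Sytl2, Nacc2 and Xdh both Th17 arrays were near or below the floor.

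The other genes of the 15 widest lower gaps either belong to the lists described further on or are these 4. Clec2i, a C-type lectin that NK receptors bind, had 19.3 and 30.9 in Th17 and exFoxp3Th17, against 396 and 192 in Th0 and Treg (6.21-fold). Ptgir, the prostacyclin receptor, had 33.4 and 32.5 in Th17 and exFoxp3Th17, against 167 and 149 in Th0 and Treg (4.46-fold). Coro2a, a coronin of the actin cytoskeleton, had 100.04 and 14.9 in Th17 and exFoxp3Th17, against 427 and 666 in Th0 and Treg (4.27-fold). The Coro2a signal on the Th17 array was well above that on the exFoxp3Th17 array, and both were below the other side. Cdc25b, a phosphatase that opens the way into mitosis, had 138 and 97.9 in Th17 and exFoxp3Th17, against 941 and 523 in Th0 and Treg (3.8-fold).

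**Figure D2:**
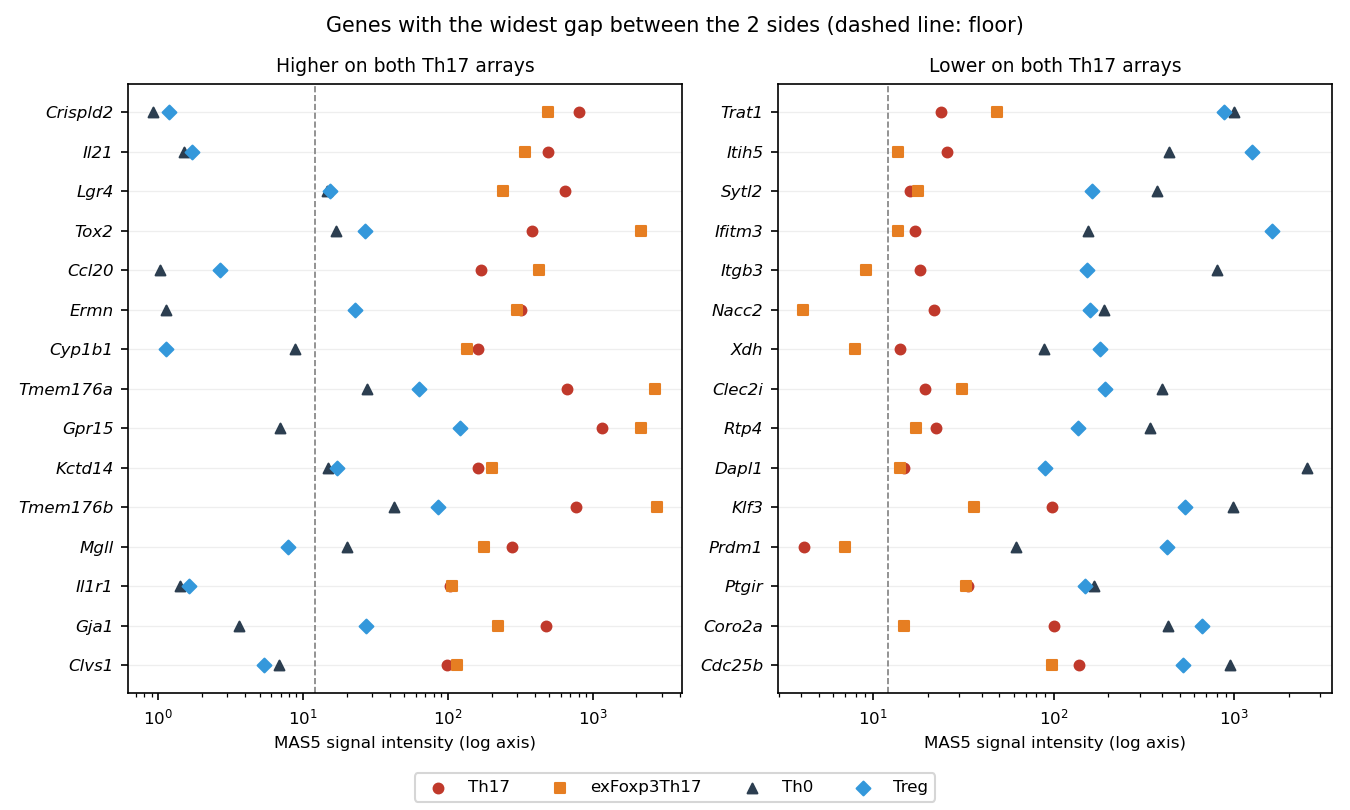
MAS5 signal (log axis) on the 4 arrays for the 15 genes with the widest gap in each direction among those with the lowest array of the higher side at 48.4 or more; circles are Th17, squares exFoxp3Th17, triangles Th0 and diamonds Treg, and the dashed line is the floor of 12.1. In each row the circle and square lie together on one side of the triangle and diamond.

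Of a Th17 program list, 14 members lay above the floor and 9 were higher on both Th17 arrays by 2-fold, against 1.74% of all genes; 0 were lower. The median difference of side means over the 14 was 3.64 in log2 units, against -0.01 over all genes above the floor. The 9 include a transcription factor pair, receptors, a chemokine, a cytokine and 2 membrane proteins. The members of the list were chosen with these arrays' earlier results known, so the count describes and does not test the program. Il17f, Il22 and Il23r were not analysed here.

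Rora, a nuclear receptor of the ROR family that drives Il17a transcription, had 682 in Th17 and 918 in exFoxp3Th17, against 66.3 in Th0 and 107 in Treg, a gap of 6.38-fold. Ahr, the aryl hydrocarbon receptor, had 1528 in Th17 and 746 in exFoxp3Th17, against 38 in Th0 and 183 in Treg, a gap of 4.08-fold. Another probe set of Ahr was separated the same way but by less than 2-fold. Tmem176a and Tmem176b encode related membrane proteins that lie side by side in the genome and are abundant in Th17 cells. Tmem176a had 664 in Th17 and 2710.0 in exFoxp3Th17, against 27.8 in Th0 and 63.2 in Treg (10.5-fold). Tmem176b had 763 in Th17 and 2781 in exFoxp3Th17, against 42.7 in Th0 and 84.9 in Treg (8.99-fold). Both were highest on the exFoxp3Th17 array.

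The receptors of the list and the ligand of one of them were separated by 4-fold or more. Il1r1, the signalling receptor of IL-1, had 103 in Th17 and 107 in exFoxp3Th17, against 1.42 in Th0 and 1.62 in Treg (at least 8.48-fold). Ccr6, the receptor of CCL20, had 329 in Th17 and 1522 in exFoxp3Th17, against 19.6 in Th0 and 54.5 in Treg (6.02-fold), and Ccl20 itself had 169 in Th17 and 427 in exFoxp3Th17, against 1.02 in Th0 and 2.67 in Treg (at least 14-fold). Receptor and ligand were thus both higher on both Th17 arrays. Il17re, a chain of the IL-17C receptor, had 72.2 in Th17 and 433 in exFoxp3Th17, against 17.1 in Th0 and 12.5 in Treg (4.22-fold). Its signal on the exFoxp3Th17 array was several times that on the Th17 array.

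The other 5 members above the floor did not reach a 2-fold gap. Maf, a factor that drives IL-21 and IL-10, had 3072 in Th17 and 2219 in exFoxp3Th17, against 17.2 in Th0 and 1351 in Treg, separated by 1.64-fold, with the Treg array far above the Th0 array. Stat3, which carries the IL-6 and IL-21 signals, had 614 in Th17 and 675 in exFoxp3Th17, against 264 in Th0 and 477 in Treg, separated by 1.29-fold. Batf, the AP-1 factor that opens Th17 loci, had 421 in Th17 and 657 in exFoxp3Th17, against 420.3 in Th0 and 581 in Treg. Hif1a, the hypoxia factor, had 4162 in Th17 and 2639 in exFoxp3Th17, against 1224 in Th0 and 3006 in Treg. Irf4, the partner of BATF, had 1055 in Th17 and 80.3 in exFoxp3Th17, against 109.5 in Th0 and 373 in Treg. For Batf, Hif1a and Irf4 the sides overlapped.

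Among aryl hydrocarbon receptor targets, 6 were above the floor and 6 were called, 5 higher and 1 lower, against 1.74% and 0.96% of all genes. Their median difference of side means was 2.33 in log2 units, against -0.01 over all genes. Cyp1a1, the cytochrome P450 that oxidises the receptor's own ligands, had 35.9 in Th17 and 257 in exFoxp3Th17, against 7.73 in Th0 and 10.8 in Treg, a gap of at least 2.96-fold. Its signal on the exFoxp3Th17 array was several times that on the Th17 array. Cyp1b1, a related P450, had 160.4 in Th17 and 136 in exFoxp3Th17, against 8.75 in Th0 and 1.13 in Treg, a gap of at least 11.2-fold. Its 2 Th17 arrays were close to each other.

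The feedback inhibitors and a further target followed the same order. Ahrr, the repressor that competes with the receptor, had 51.3 in Th17 and 92.1 in exFoxp3Th17, against 6.82 in Th0 and 21.8 in Treg (2.35-fold). Tiparp, the ADP-ribosylase that limits the receptor, had 518 in Th17 and 512 in exFoxp3Th17, against 165 in Th0 and 215 in Treg (2.39-fold). Lpxn, the adaptor leupaxin, had 1949 in Th17 and 2815 in exFoxp3Th17, against 312 in Th0 and 489 in Treg (3.99-fold). All 3 were separated, with each Th17 array more than 2-fold above both others. The opposite case was Nqo1, a quinone reductase that the oxidant factor NRF2 also controls, with 0.616 in Th17 and 14.7 in exFoxp3Th17, against 34.9 in Th0 and 32.6 in Treg and a gap of 2.21-fold. Nqo1 lost its call with a floor of 2 times the one used and with the floor added as a pseudocount, and Cyp1a1 lost its call under the first of these and Ahrr under the second.

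**Figure D3:**
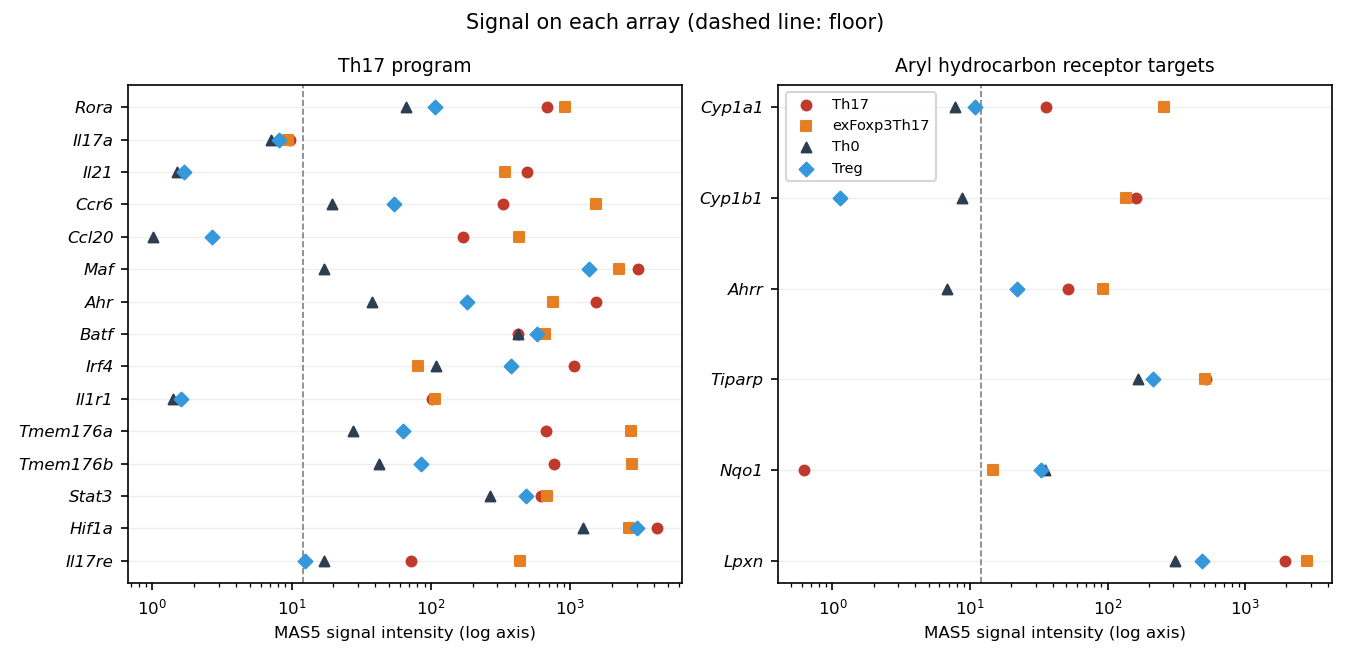
MAS5 signal (log axis) on each array for members of the Th17 program and of the aryl hydrocarbon receptor target list, with the floor of 12.1 as a dashed line. Il21, Ccl20, Il1r1 and Cyp1b1 lie below the floor on both Th0 and Treg, while Batf, Hif1a and Irf4 have overlapping sides and Nqo1 lies the other way round.

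The 5 targets called higher are shown with the 250 bases before their transcription start in RefSeq (GRCm38.p6), since the receptor's DNA element contains GCGTG. Capitals mark each GCGTG, on either strand (CACGC where it reads on the other). All 5 windows hold it, at distances of 13 to 170 bases before the start, and Ahrr holds it 3 times. Cyp1a1 lies on the plus strand of chr9:57697363-57697612, Cyp1b1 on the minus strand of chr17:79715062-79715311, Ahrr on the minus strand of chr13:74292332-74292581, Tiparp on the plus strand of chr3:65528197-65528446 and Lpxn on the plus strand of chr19:12795943-12796192.
Cyp1a1: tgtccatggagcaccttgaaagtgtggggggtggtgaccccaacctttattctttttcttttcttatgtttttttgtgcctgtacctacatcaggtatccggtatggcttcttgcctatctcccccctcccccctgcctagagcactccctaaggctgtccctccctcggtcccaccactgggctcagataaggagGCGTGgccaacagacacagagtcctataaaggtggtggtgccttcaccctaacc
Cyp1b1: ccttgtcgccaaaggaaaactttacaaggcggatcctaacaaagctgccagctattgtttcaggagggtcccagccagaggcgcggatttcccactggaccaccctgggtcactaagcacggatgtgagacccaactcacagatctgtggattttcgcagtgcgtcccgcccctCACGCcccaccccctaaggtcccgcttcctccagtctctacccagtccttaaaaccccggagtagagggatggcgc
Ahrr: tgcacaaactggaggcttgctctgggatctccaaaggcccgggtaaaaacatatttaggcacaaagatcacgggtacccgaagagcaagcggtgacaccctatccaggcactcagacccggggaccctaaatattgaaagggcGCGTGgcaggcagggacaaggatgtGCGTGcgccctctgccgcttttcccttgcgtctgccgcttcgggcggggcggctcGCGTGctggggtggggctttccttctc
Tiparp: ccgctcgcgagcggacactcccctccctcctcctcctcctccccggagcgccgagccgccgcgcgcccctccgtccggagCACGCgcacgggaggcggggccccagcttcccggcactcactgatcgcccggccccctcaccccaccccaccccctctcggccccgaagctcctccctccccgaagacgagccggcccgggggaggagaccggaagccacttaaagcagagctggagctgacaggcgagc
Lpxn: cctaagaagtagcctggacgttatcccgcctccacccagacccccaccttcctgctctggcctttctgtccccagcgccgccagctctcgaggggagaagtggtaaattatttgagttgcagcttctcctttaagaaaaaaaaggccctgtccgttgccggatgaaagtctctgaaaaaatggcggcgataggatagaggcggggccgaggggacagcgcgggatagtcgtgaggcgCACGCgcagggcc

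GCGTG is short and common: 44.4% of 223 windows of genes called higher held it, 36.1% of 119 windows of genes called lower and 44% of 12170 windows of genes above the floor. The share among genes called higher was therefore near that of all genes above the floor. A match is a description of the letters and not a bound site. AGGTCA, the core bound by ROR and other nuclear receptors, stood in 9.87% of the windows of genes called higher, 10.1% of those called lower and 10.9% of those above the floor. TGANTCA, the AP-1 element, stood in 7.17%, 5.04% and 4.36% of these windows, and TTCNNNGAA, the STAT element, in 7.17%, 5.04% and 5.94%. All motifs were searched on both strands and can overlap one another; of the genes called, 165 higher and 84 lower had a window. Of the Th17 program members called higher, Ccl20 and Ccr6, the ligand and receptor pair, have an AGGTCA before the start. These are 2 of the 13 windows of those members (15.4%), and members not called are not described. The AGGTCA is in capitals (as TGACCT), 174 bases before the start of Ccl20 (plus strand, chr1:83116516-83116765) and 44 before that of Ccr6 (plus strand, chr17:8235793-8236042, 1 of 2 windows of that gene).
Ccl20: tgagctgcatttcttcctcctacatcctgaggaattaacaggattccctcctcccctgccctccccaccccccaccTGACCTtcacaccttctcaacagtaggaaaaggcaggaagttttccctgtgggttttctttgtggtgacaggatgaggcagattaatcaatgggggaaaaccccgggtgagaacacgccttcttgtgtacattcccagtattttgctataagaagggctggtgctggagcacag
Ccr6: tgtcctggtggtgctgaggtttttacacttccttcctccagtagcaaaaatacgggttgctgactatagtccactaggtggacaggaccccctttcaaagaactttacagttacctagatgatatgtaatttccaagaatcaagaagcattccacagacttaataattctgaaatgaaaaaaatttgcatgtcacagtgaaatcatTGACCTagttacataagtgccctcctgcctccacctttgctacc

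Of the TGF-beta response list, 15 members were above the floor, 3 were higher by 2-fold and 0 lower, against 1.74% and 0.96% of all genes. Without a minimum gap 9 were higher and 1 lower, against 19.2% and 19.5% of all genes. The median difference of side means was 1.30 in log2 units, against -0.01 over all genes. Tgfbi, an adhesion protein of the matrix named for its induction by TGF-beta, had 49 in Th17 and 479 in exFoxp3Th17, against 4.69 in Th0 and 4.13 in Treg (at least 4.05-fold). Pmepa1, which holds back SMAD signalling, had 609.5 in Th17 and 868 in exFoxp3Th17, against 60.2 in Th0 and 265 in Treg (2.3-fold). Gpr15 is the other member. The count was 9 without the Th17 array and 7 without the Treg array, and was 3 without exFoxp3Th17 or without Th0. Pmepa1 lost its call with the mean of probe sets, at a gap of 0.77 in log2 units, which left 2 in the list.

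Genes of follicular helper T cells, which give help to B cells, were 12 above the floor, with 2 higher and 0 lower and a median difference of 0.65 in log2 units. The shares of all genes, for this and the next 4 lists, were 1.74% higher and 0.96% lower. Besides Tox2 the member called was Bcl6, the repressor that defines follicular helper cells, with 172 in Th17 and 350.2 in exFoxp3Th17, against 41.5 in Th0 and 37.4 in Treg (4.14-fold). Among SOX, TCF and TOX factors, Tox2 was the 1 of 9 called, with a median of 0.31. Of 16 chemokines and effector cytokines 3 were higher and 0 lower (median 0.21): Ccl20, Il21 and Il9. Il9, a growth factor for mast cells, had 813 in Th17 and 38.8 in exFoxp3Th17, against 9.7 in Th0 and 15.8 in Treg (2.46-fold), so its signal on the exFoxp3Th17 array was much below that on the Th17 array and nearer the floor. Of 18 cytokine receptor chains 3 were higher and 0 lower (median -0.02): Il1r1, Il17re and Ifngr2. Ifngr2, the signalling chain of the interferon-gamma receptor, had 216 in Th17 and 191 in exFoxp3Th17, against 57.4 in Th0 and 39.7 in Treg (3.32-fold). Of 14 chemokine receptors 2 were higher, Ccr6 and Gpr15, and 1 was lower (median 1.02). The lower one was Ccr2, a receptor of monocyte chemokines, with 67.2 in Th17 and 10.2 in exFoxp3Th17, against 164 in Th0 and 222 in Treg (2.44-fold). With 1 array left out, the counts higher were 4 (without Th17) and 5 (without Th0) for the follicular list, 2 for the SOX, TCF and TOX list (without Th17 or exFoxp3Th17), 8 for the cytokines (without exFoxp3Th17) and 4 (without Th17) and 5 (without Treg) for the chemokine receptors. Chemokine receptors lower were 2 without exFoxp3Th17, Th0 or Treg. With the mean of probe sets Ccr2 lost its call (gap -0.96 in log2 units), which left 0 chemokine receptors lower, and so did Ifngr2 (0.69), which left 2 receptor chains higher. Il9 lost its call with a floor of 2 times the one used (0.68) and with the floor as a pseudocount (0.87), and each left 2 cytokines higher.

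Of 12 interferon-inducible GTPases and IFITM genes, 3 were lower by 2-fold, against 0.96% of all genes, and 0 higher; 6 were lower by any gap, against 19.5% of all genes, and the sides of the other 6 overlapped. The median difference was -1.91 in log2 units. Gbp7, a guanylate-binding protein that guards vacuoles with pathogens, had 147 in Th17 and 87 in exFoxp3Th17, against 537 in Th0 and 1621 in Treg (3.66-fold). Ifitm2 and Ifitm3, membrane proteins that block virus entry, differed in size. Ifitm3 had 17 in Th17 and 13.7 in exFoxp3Th17, against 154 in Th0 and 1624 in Treg (9.04-fold), and Ifitm2 had 50.9 in Th17 and 33.5 in exFoxp3Th17, against 123 in Th0 and 492 in Treg (2.42-fold). Both were highest on the Treg array. Of 18 type I interferon response genes, 2 were lower by 2-fold, 0 higher and 9 lower by any gap, the sides of the other 9 overlapped, and these 18 had a median of -0.67. Rtp4, an interferon-induced chaperone of receptors, had 22.3 in Th17 and 17.2 in exFoxp3Th17, against 342 in Th0 and 136 in Treg (6.1-fold), and Isg20, an exonuclease that degrades viral RNA, had 97.1 in Th17 and 26.3 in exFoxp3Th17, against 196 in Th0 and 453 in Treg (2.02-fold). The count of the first list was 9 without the Th0 array, and that of the second was 4 without exFoxp3Th17 and 7 without Treg. Isg20 lost its call with equal medians and with the floor as a pseudocount, each of which left 1 in the second list. The interferon response element stood in 3.14% of windows of genes called higher, 3.36% of those called lower and 2.6% of those above the floor. Among the members of the 2 interferon lists called lower, 2 of 6 windows held that element (33.3%), those of Gbp7 and Ifitm2. Gbp7 is shown because it is an interferon list member called lower with that element, in capitals 53 bases before its start (plus strand, chr3:142530086-142530335, reading on the other strand).
Gbp7: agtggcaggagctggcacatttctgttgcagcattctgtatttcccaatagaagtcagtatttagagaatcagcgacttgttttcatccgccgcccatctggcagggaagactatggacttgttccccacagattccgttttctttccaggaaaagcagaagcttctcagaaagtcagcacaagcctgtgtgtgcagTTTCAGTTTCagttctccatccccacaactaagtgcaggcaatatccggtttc

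Genes of naive and central memory cells and of adhesion were lower in part. Of 12 naive and central memory genes 3 were lower by 2-fold, against 0.96% of all genes, and 0 higher. By any gap 4 were higher and 4 lower, against 19.2% and 19.5% of all genes, with a median of 0.31. Klf2, which keeps T cells recirculating, had 273 in Th17 and 141 in exFoxp3Th17, against 1336 in Th0 and 843 in Treg (3.09-fold). Klf3, a related repressor, had 97.3 in Th17 and 36.1 in exFoxp3Th17, against 983 in Th0 and 534 in Treg (5.49-fold). Dapl1, a marker of quiescent T cells, had 14.9 in Th17 and 14.1 in exFoxp3Th17, against 2522 in Th0 and 89.3 in Treg (6-fold). Dapl1 was far higher on the Th0 array than on the Treg array. Of 11 integrin chains 3 were lower, against 0.96% of all genes, and 0 higher (median -0.36). Itgb3, the beta chain of the vitronectin receptor, had 18.1 in Th17 and 9.1 in exFoxp3Th17, against 797 in Th0 and 152 in Treg (8.4-fold). The 1 other probe set of Itgb3 above the floor was not separated. With the mean of probe sets its gap was -1.535 in log2 units, against -3.07 as reported, and it kept its call. Itga6, a laminin receptor chain, had 438 in Th17 and 485 in exFoxp3Th17, against 991 in Th0 and 1316 in Treg (2.04-fold). Itgb7, which pairs with alpha chains for gut homing, had 375 in Th17 and 375 in exFoxp3Th17, against 1239 in Th0 and 758 in Treg (2.02-fold). The Itga6 and Itgb7 gaps were close to 2-fold, and Itgb7 lost its call with the floor as a pseudocount.

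Single members were called lower in 4 further lists, against 0.96% of all genes. Of 23 regulatory T cell signature genes 1 was lower and 0 higher (median -0.24), and the same gene was the 1 of 14 in the IL-2 and STAT5 list (median -0.56). This was Prdm1, the repressor Blimp-1, with 4.14 in Th17 and 6.96 in exFoxp3Th17, against 61.9 in Th0 and 422 in Treg (at least 5.12-fold). Of 5 Th2 genes 1 was lower (median 1.02): Gata3, the Th2 master factor, with 27 in Th17 and 135 in exFoxp3Th17, against 453 in Th0 and 288 in Treg (2.13-fold). Of 10 cytotoxic granule genes 1 was lower (median -0.62): Fasl, the death ligand, with 4.49 in Th17 and 4.41 in exFoxp3Th17, against 41.3 in Th0 and 50.3 in Treg (at least 3.41-fold). Both Fasl signals of the Th17 side lay below the floor. Without Th0 these counts were 8 for the regulatory T cell list, 3 for the IL-2 list and 6 for the cytotoxic list, and without Th17 they were 7 for the regulatory T cell list and 7 for the IL-2 list. Fasl lost its call with a floor of 2 times the one used (gap -0.77 in log2 units) and with the mean of probe sets (-0.89), and the cytotoxic count was then 0.

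Growth genes were lower on both Th17 arrays by narrow gaps. All 15 mitosis genes above the floor were separated in that direction, against 19.5% of all genes, but with a 2-fold gap there was 1, Ccnb2, a cyclin of mitotic entry, with 679.7 in Th17 and 559 in exFoxp3Th17, against 1777 in Th0 and 1471 in Treg (2.16-fold). The count at 2-fold was 14 without the Th17 array and 5 without the Treg array. The mitosis gaps ran from 1.05-fold to 2.16-fold. Of 16 DNA replication genes 12 were separated that way, with gaps of 1.10-fold to 1.56-fold, and of 13 cholesterol synthesis genes 10, with gaps of 1.07-fold to 1.46-fold; 0 in either list reached 2-fold and 0 were higher. The median difference of side means was -1.37, -1.19 and -0.85 in log2 units for mitosis, DNA replication and cholesterol synthesis. The precursors were uneven: the median ratio of Th0 over Th17 was 1.80-fold for mitosis and 1.14-fold for DNA replication, and that of Treg over exFoxp3Th17 was 3.41-fold and 4.42-fold. For cholesterol synthesis the medians were 1.66-fold and 1.61-fold. By these medians the Th17 array lay close to the Th0 array in DNA replication, and the exFoxp3Th17 array lay further below the Treg array in both cell cycle lists than in cholesterol synthesis.

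**Figure D4:**
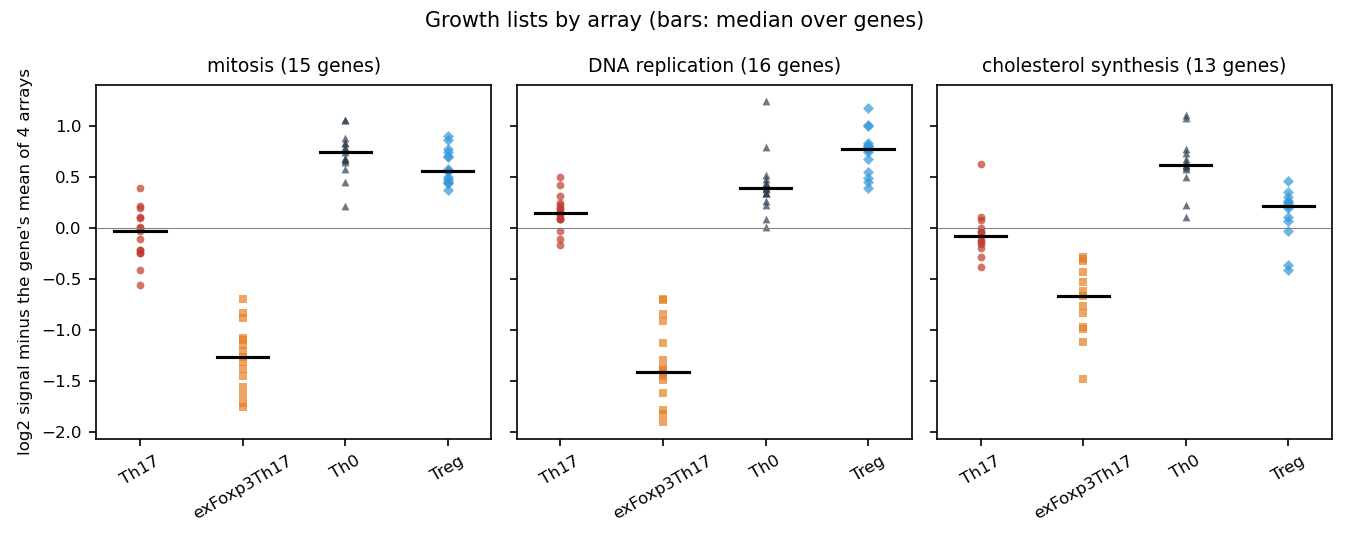
Log2 signal of the members of the mitosis, DNA replication and cholesterol synthesis lists on each array, relative to each gene's mean over the 4 arrays. Bars are medians over genes: exFoxp3Th17 lies lowest in all 3 lists, and Th17 lies between it and the Th0 and Treg arrays.

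Other lists had 0 members past a 2-fold gap in either direction: CD4 T cell identity (11 above the floor), STAT3 and IL-6 response (13), Th1 program (11), metallothioneins and zinc transporters (9), AP-1 and immediate early (19), ATF4 stress response (13), glycolysis (14), inhibitory and costimulatory receptors (15) and housekeeping (8). Their medians ran between -0.41 for Th1 and 0.85 for STAT3 in log2 units. Markers of other cell types were read as 7 lists of B cells, macrophages and monocytes, neutrophils, dendritic cells, NK cells, CD8 T cells and gamma-delta T cells: 36 genes were measured, 18 lay above the floor on any array and 0 were called. Cd79a, Ms4a1, Pax5, Cd14, Lyz2, S100a8, S100a9 and Ncr1 lay below the floor on all arrays. The summed signal of the B cell list was 41.2 and 53.3 in Th17 and exFoxp3Th17, against 36.2 and 98.4 in Th0 and Treg. For NK cells it was 205 and 15.4 in Th17 and exFoxp3Th17, against 18.4 and 24.6 in Th0 and Treg, and Klre1 made up most of the Th17 value. Cd3d, a chain of the T cell receptor complex, had 3492 in Th17 and 4536 in exFoxp3Th17, against 4127 in Th0 and 3133 in Treg, and Cd4 had 81.2 in Th17 and 98.1 in exFoxp3Th17, against 109.6 in Th0 and 48.3 in Treg. Fewer cells of a type and less RNA per cell cannot be told apart in such samples.

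**Figure D5:**
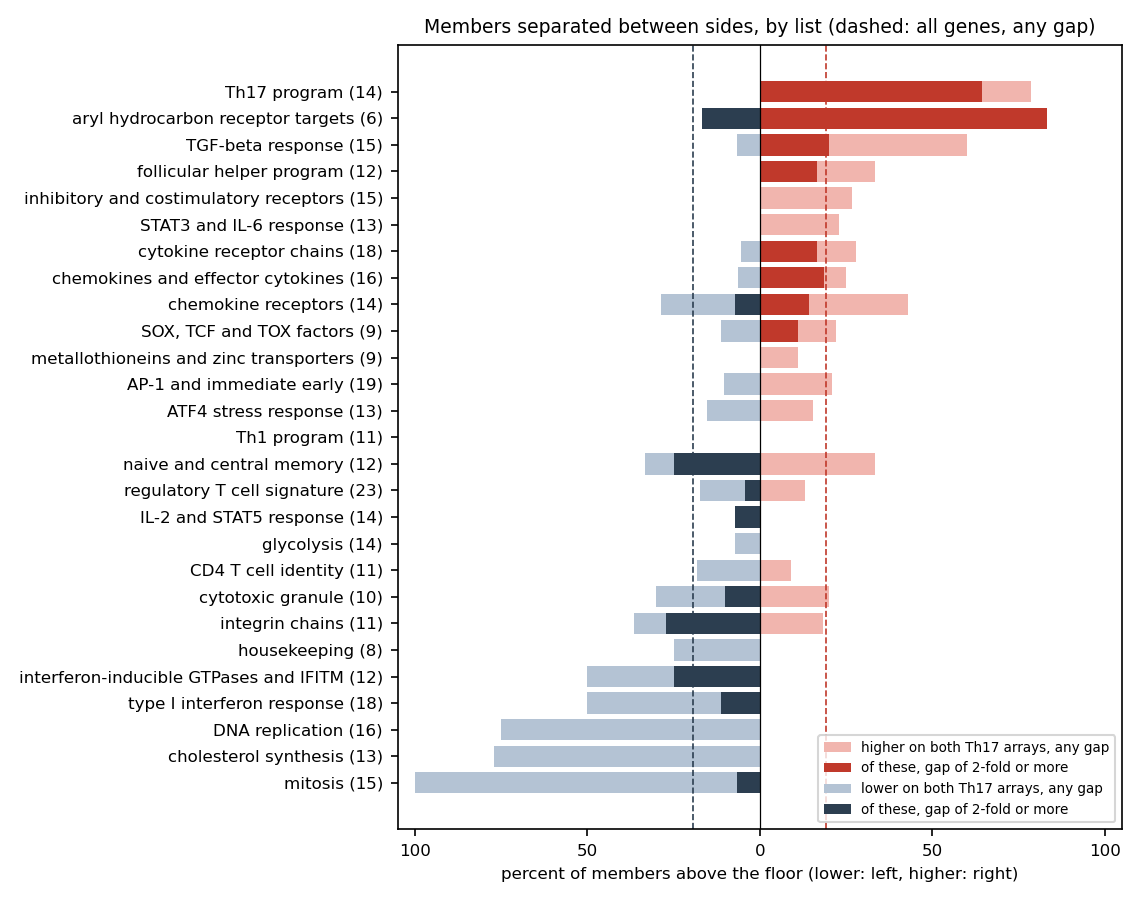
Percent of the members above the floor (number in brackets) that were higher (right) or lower (left) on both Th17 arrays, by any gap (pale) and by 2-fold (dark), with dashed lines at the shares of all genes for any gap, 19.2% higher and 19.5% lower. The Th17 program and the aryl hydrocarbon receptor targets reach furthest right, and mitosis, with 15 of 15, furthest left.

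The side differences did not describe every gene that moved in a precursor. Between the naive-derived and the Foxp3-derived ratios, 160 genes (1.36%) were higher in Th17 than Th0 and lower in exFoxp3Th17 than Treg by 2-fold, and 137 (1.16%) went the reverse way; the sides of such genes overlap by construction. IL-2 and STAT5 response genes were among the first kind in 7 of 14 cases, against the 1.36% of all genes: Il2ra, Il2rb, Cish, Tnfrsf4, Tnfrsf9, Lta and Cdkn1a. Il2ra, the high-affinity chain of the IL-2 receptor, had 2178 in Th17 and 103 in exFoxp3Th17, against 646 in Th0 and 2878 in Treg. Its naive-derived ratio was 3.37-fold and its Foxp3-derived ratio 0.0357-fold. Further cases of the first kind were 4 of 14 glycolysis genes, 4 of 16 chemokines and cytokines, 4 of 23 regulatory T cell signature genes, 3 of 18 cytokine receptor chains, 3 of 13 ATF4 genes, 3 of 9 metallothioneins and zinc transporters (Mt1, Mt2 and Slc39a8) and 2 of 15 inhibitory and costimulatory receptors. The Th17, STAT3, GTPase and IFITM, cytotoxic and AP-1 lists had 1 each. Cases of the reverse kind were 1 each in the Th1, type I interferon, naive and central memory, cytokine receptor and SOX, TCF and TOX lists.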

How the data were processed

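Deposited intensity values were made by the authors with MAS5, per the submitters' processing notes (version not given in the sources used here), from 1 µg of RNA per sample, per the labels' protocols. The mean intensity without the lowest and highest 2% of probe sets was 100 on each of the 4 arrays, so they were used as scaled. Of 45101 probe sets 64 are controls, 34945 have 1 gene symbol, 932 several and 9160 none. Of the probe sets with 1 symbol, 34741 had a gene identifier that matched RefSeq and 204 did not. Where a gene had several single-gene probe sets, the one with the highest average log2 signal stood for it. With 1 array per population, and sides made of different populations, no test was made. Values below the floor (12.1) were set to it; a gene was called when the gap between sides was 2-fold or more and the lowest array of the higher side exceeded the floor. Python 3.11.15 with pandas 2.3.3 was used. The code of the gap rule was run on simulated arrays with independent noise and changes planted in genes well above the floor. Real arrays of different populations are unlike that setting, so the run gives no error rate for the calls reported here.

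The members and lists were chosen with earlier results of these data known. The rule named the sort markers, the 15 widest gaps in each direction (the lowest array of the higher side at 48.4 or more, no other probe set separated the opposite way, no clone or predicted symbol), up to 5 called members per list and uncalled Th17 program members. Xist, Eif2s3y, Itgae, Il2ra, GCGTG, the 250-base windows and genes of the closing observations were chosen after values were seen. Alternatives tried were the floor, a pseudocount, quantile normalization, equal medians, the mean of probe sets, the minimum gap and leaving out each array.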

Additional observations from a re-analysis of the deposited data

Results flagged for a closer look

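Irf4 moved in opposite ways in the precursors: its log2 ratio was 3.27 for Th17 over Th0 and -2.21 for exFoxp3Th17 over Treg, with 1055 in Th17 and 80.3 in exFoxp3Th17, against 109.5 in Th0 and 373 in Treg. Each ratio compares 2 single arrays, and the difference was not tested. The same opposition held for 160 genes that were higher by 2-fold in Th17 than in Th0 and lower in exFoxp3Th17 than in Treg, and for 137 genes the reverse way. These differences were not tested either.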

How the results depend on the processing

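Against 205 genes higher and 113 lower, a floor of 4 times the one used gave 126 and 62, and a 3-fold minimum gap 88 and 36. No minimum gap gave 2263 and 2300. The mean of probe sets gave 134 higher, and the floor as a pseudocount 72 lower. Leaving out 1 array gave 348 to 756 higher and 229 to 659 lower, since fewer arrays then have to lie beyond the others; the TGF-beta list then had 3 to 9 members higher. Quantile normalization gave 205 and 111, equal medians 199 and 121; 64.5% of all calls were in the higher direction as reported, against 64.9% and 62.2%. Of 60 named genes, 48 kept their call, or lack of one, under all 6 alternatives. Calls were lost by Cyp1a1, Fasl, Il9 and Nqo1 with a floor of 2 times the one used, by Ahrr, Il9, Isg20, Itgb7 and Nqo1 with the pseudocount, by Ccr2, Clvs1, Fasl, Ifngr2 and Pmepa1 with the mean of probe sets, and by Isg20 with equal medians; Maf gained one with the mean of probe sets. The cause was not tested. Signals near the floor and 1 array per population limit the precision. Pairing by precursor was used only as single-array ratios, and no replicate block could be fitted because each population has 1 array.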

Other observations

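Genes outside the lists were also separated by 2-fold, and those named here were chosen after their values were seen. Of 14 tetraspanins above the floor, membrane organisers, 4 were higher (Tspan2, Tspan3, Tspan5 and Tspan6), against 1.74% of all genes, and 0 lower; Tspan6 had 199 in Th17 and 135 in exFoxp3Th17, against 19.7 in Th0 and 26.1 in Treg and Tspan5 had 175 in Th17 and 239.8 in exFoxp3Th17, against 17.5 in Th0 and 42.2 in Treg. Of 4 BEN domain genes above the floor, 3 were higher (Bend4, Bend5 and Bend6), with 99 in Th17 and 94.7 in exFoxp3Th17, against 11.7 in Th0 and 8.82 in Treg for Bend6. Of 6 Armcx genes, neighbours on the X chromosome, 3 were higher (Armcx2, Armcx3 and Armcx6) and 5 were higher by any gap, against 1.74% and 19.2% of all genes; these families were picked because members were called, so the counts support nothing. Armcx2 had 737 in Th17 and 664 in exFoxp3Th17, against 213 in Th0 and 263 in Treg.

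Single genes were picked in the same way. Tnfaip3, the deubiquitinase A20 that ends NF-kB signals, had 344 in Th17 and 373 in exFoxp3Th17, against 121 in Th0 and 112 in Treg (2.85-fold). Relb, an NF-kB subunit, had 132 in Th17 and 153 in exFoxp3Th17, against 54.6 in Th0 and 27.2 in Treg (2.42-fold), and with Ramp1 and Slc16a10 it is among the 3 higher genes whose Th0 signal exceeded the Treg signal by 2-fold. On the lower side, Ighm, the IgM heavy chain, had 807 in Th17 and 959 in exFoxp3Th17, against 3316 in Th0 and 2406 in Treg (2.51-fold). Of 7 B cell markers measured, 4 lay below the floor on all arrays, 3 lay above it on at least 1, and 0 were called. Their summed signal was 41.2 and 53.3 in Th17 and exFoxp3Th17, against 36.2 and 98.4 in Th0 and Treg. The source of the Ighm signal was not tested.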
